A study of Mus musculus with 186 samples.

Results

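Nrip3, Has3, Tunar, Mxd3, E530001K10Rik and Apold1 are 6 of the 28338 genes in the count table. They were chosen from the readout itself, for large rises in Akap11 knockout striatum at either age, with no numeric threshold. The striatal knockout values below are therefore a description without a test, and tests were run only in the other regions and between wild-type groups. The study sequenced RNA from frozen, dissected brains of mice labelled WT, Akap11 +/- (HET) and Akap11 -/- (KO), at 4 and 12 weeks of age. The regions were striatum (STR), thalamus (TH), hippocampus (HP), substantia nigra (SN), and the somatosensory (SSC) and prefrontal (PFC) areas of the cortex. Together they gave 186 libraries in 36 groups, of which 30 held 5 libraries and 6 held 6. The sources used here do not give the kind of Akap11 allele, the strain or the sex of the mice. No label states that libraries of a group come from separate animals, so p-values measure the spread between these samples, which may in part be technical.

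Akap11 encodes an anchoring protein that tethers protein kinase A, the kinase activated by cyclic AMP, inside the cell. The striatum consists largely of projection neurons in which dopamine acts through cyclic AMP and this kinase. The chosen genes do unlike things. Has3 encodes a hyaluronan synthase, a membrane enzyme that makes the matrix sugar hyaluronan and extrudes it from the cell. Mxd3 encodes a transcription factor that pairs with MAX and opposes MYC at E-boxes. Nrip3 encodes a protein with a fold like that of retroviral aspartyl proteases. Tunar was described as a long noncoding RNA of stem cells and neurons and holds a short reading frame for a microprotein that binds the SERCA calcium pump. Apold1 encodes a protein of the apolipoprotein L family and is known as an early response gene of endothelial cells.

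In GENCODE M21 on GRCm38, the build also known as mm10, Nrip3 lies at chr7:109758055-109782025 on the minus strand and Has3 at chr8:106870242-106884566 on the plus strand. Tunar lies at chr12:105333870-105383932 (plus), Mxd3 at chr13:55325168-55329823 (minus) and Apold1 at chr6:134981718-134986836 (plus). E530001K10Rik had no match in that annotation. The end of Has3 overlaps Chtf8 on the opposite strand, and the end of Mxd3 overlaps Prelid1 on the opposite strand. The sources used here do not say whether the counting used the strand, so the values of these overlapping genes are uncertain to that extent. In KO against WT striatum Chtf8 differed by -0.11 ± 0.09 (log2 ± SE) at 4 weeks and 0.04 ± 0.06 at 12 weeks. Prelid1 differed by 0.02 ± 0.10 and 0.05 ± 0.08, and neither gene was called at either age.

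The reading frame of Tunar is shown because the annotations disagree on the gene: GENCODE lists it as protein coding and RefSeq as a long noncoding RNA. The frame lies in an exon of the annotated coding transcript at chr12:105381384-105381530 and holds 48 amino acid codons and a stop codon within 147 bases. It is printed 5′ to 3′ on the plus strand, with the start and stop codons in capitals.
Tunar reading frame: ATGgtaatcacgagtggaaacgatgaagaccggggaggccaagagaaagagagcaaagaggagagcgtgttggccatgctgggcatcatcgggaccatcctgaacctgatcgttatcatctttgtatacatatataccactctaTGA

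RefSeq promoter entries (GRCm38.p6) matched Tunar, Mxd3 and Apold1. The 250 bases upstream of each RefSeq start site were searched on both strands for the letters of 6 motifs. Among 32841 such windows, the full cyclic AMP response element TGACGTCA was in 1.55%, its short core TGACG in 17.8%, the AP-1 site TGANTCA in 6.75%, the EGR site GCGNGGGCG in 4.7% and the E-box CACGTG in 6.02%. The GENCODE genes start further upstream, so the Apold1 window and both Tunar windows lie wholly within the annotated genes, as do 92 bases of the Mxd3 window. None of these motifs was in the Mxd3 window or the first Tunar window, and the core, which the full element contains, was in the Apold1 window and in the other Tunar window. The GC box GGGCGG, added to the search after the Mxd3 sequence was seen, was in 32.7% of windows. It occurred 2 times in the other Tunar window, which is not printed, and 8 times in the Mxd3 window. For that reason 223 bases of the Mxd3 window are printed, from chr13:55329759-55329981 on the minus strand, with each GC box in capitals. G and C made up 73.2% of the Mxd3 window and 70.0% of that Tunar window, against a median of 52.4% over all windows. Of the printed bases 65, with 5 of the GC boxes, lie in an exon of a retained-intron transcript of Mxd3, upstream of the coding transcript. A match is a description of the letters only.
Mxd3 window: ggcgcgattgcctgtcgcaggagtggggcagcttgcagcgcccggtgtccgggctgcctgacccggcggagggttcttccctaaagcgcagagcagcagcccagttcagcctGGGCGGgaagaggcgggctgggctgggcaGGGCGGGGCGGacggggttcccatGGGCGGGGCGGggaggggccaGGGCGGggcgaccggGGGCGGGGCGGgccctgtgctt

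Library totals ran from 20.8 to 73.3 M counts. Akap11 itself was lower in every KO library than in any WT or HET library of the same region and age in 12 of 12 sets. HET was below every WT library in 11 of 12. The exception was 4-week SN, where Akap11 stood at 44.8 CPM in the library labelled WT 92, below all HET libraries (97.8 to 139) and the other WT libraries (197 to 245), against its label. The summed striatal neuron markers put all 30 striatal libraries above those of the other regions. The thalamic and dopamine neuron marker lists did so for 30 of 31 thalamic and 31 of 32 nigral libraries. At 4 weeks, 4 striatal libraries (WT 92, KO 51, KO 161 and KO 163) stood apart in cortical and hippocampal excitatory neuron markers. The 12 markers summed to 788 to 1640 CPM (counts scaled to library size) in these libraries, against 31.3 to 153 in the other 11 and 2290 to 5283 in cortex. The 4-week striatal value of each of the 6 genes is therefore also given without them. In bulk tissue, fewer cells of a type and less RNA per cell cannot be told apart.

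Nrip3 was higher in KO striatum at each age. At 4 weeks it measured 60.8, 78.3, 86.5, 90.9 and 99.1 CPM in the 5 KO libraries and 20.3, 22.1, 28.9, 30.2 and 43.6 in the 5 WT libraries. The HET libraries held 26.8 to 34.6 CPM, so the KO libraries stood apart from every WT and HET library. At 12 weeks the KO libraries held 51.5, 53.3, 54.0, 67.9 and 70.0 CPM against 24.2, 28.7, 30.9, 36.1 and 37.8 in WT, again with no overlap. The log2 difference, fitted with edgeR, was 1.52 ± 0.17 (SE, n = 5 and 5) at 4 weeks and 0.90 ± 0.11 at 12 weeks. The 4-week WT library with the highest Nrip3, WT 92, was the WT library high in cortical markers, and WT cortex held more Nrip3 than WT striatum. Without the 4 libraries high in those markers, 2 KO libraries at 78.3 and 86.5 CPM remained against 4 WT libraries at 20.3 to 30.2, and the difference was 1.69 ± 0.14.

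Has3 showed the larger difference at 12 weeks. Its KO libraries then held 12.9, 16.3, 16.4, 16.5 and 23.9 CPM, above all WT libraries at 4.05, 4.63, 5.37, 5.77 and 5.82. At 4 weeks 4 of 5 KO libraries (13.8, 16.8, 16.9 and 18.7 CPM) exceeded all WT libraries (7.05, 7.91, 7.99, 9.60 and 10.2), and the fifth, KO 161, fell among them at 9.41. The log2 difference was 0.82 ± 0.16 at 4 weeks and 1.74 ± 0.15 at 12 weeks. WT striatum itself held less Has3 at 12 weeks (5.13 ± 0.768 CPM, SD, n = 5) than at 4 weeks (8.55 ± 1.30), whereas the KO means were 17.2 ± 4.05 and 15.1 ± 3.64. KO 161 had the highest cortical marker sum, and without the 4 libraries the 4-week difference was 1.02 ± 0.16.

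Tunar stood at 11.9, 12.1, 13.3, 13.7 and 17.7 CPM in KO striatum at 4 weeks, and at 4.28, 4.97, 5.39, 5.60 and 7.94 in WT. At 12 weeks it measured 11.4, 13.8, 14.3, 17.2 and 22.4 in KO against 3.02, 6.98, 7.50, 7.62 and 10.5 in WT. No KO library overlapped WT or HET at either age. The log2 difference was 1.28 ± 0.16 and 1.14 ± 0.27, and 1.03 ± 0.20 at 4 weeks without the 4 libraries.

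E530001K10Rik, a transcript with a RIKEN clone name, measured 5.22, 6.57, 9.73, 9.90 and 12.4 CPM in KO striatum at 4 weeks, against 2.08, 2.12, 2.80, 2.86 and 3.60 in WT. At 12 weeks the KO libraries held 7.75 to 10.6 CPM and the WT libraries 2.15 to 4.17. The groups did not overlap at either age, and the HET libraries, at 2.41 to 4.22 CPM over both ages, lay below every KO library. Its log2 difference was nearly the same at both ages, 1.69 ± 0.22 and 1.68 ± 0.16. The 2 lowest 4-week KO libraries were KO 161 and KO 51, both high in cortical markers, and without the 4 libraries the difference was 1.95 ± 0.21.

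Mxd3 was scarce, with 19 to 81 counts per WT striatal library and 37 to 265 per KO library. At 12 weeks KO libraries held 3.03, 3.17, 3.96, 5.35 and 5.86 CPM, above WT at 0.518, 0.555, 1.12, 1.63 and 1.95. At 4 weeks the groups overlapped: KO 12, at 1.31 CPM, lay below WT 913 at 2.04, and the other KO libraries held 2.33, 2.84, 3.38 and 3.92. The log2 difference was 1.35 ± 0.36 at 4 weeks and 1.88 ± 0.40 at 12 weeks. Without the 4 libraries the 4-week value dropped to 0.75 ± 0.48, with the 2 remaining KO libraries at 1.31 and 2.33 CPM.

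Apold1 was the most variable of the genes in striatum. At 4 weeks the KO libraries held 6.06, 8.44, 9.44, 11.4 and 34.6 CPM and the WT libraries 1.97, 2.16, 5.78, 7.11 and 14.2, so only KO 51 exceeded every WT library. At 12 weeks KO stood at 5.61, 7.68, 8.44, 12.5 and 14.7 CPM, above all WT libraries (1.09, 2.04, 3.99, 4.28 and 4.93), though HET 1 reached 6.56. The log2 difference was 1.17 ± 0.54 at 4 weeks and 1.58 ± 0.41 at 12 weeks. Without KO 51 and the other 3 libraries high in cortical markers it was 0.50 ± 0.61 at 4 weeks.

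In the edgeR fit over all genes, 5 of the 6 genes were called at 4 weeks, all but Apold1, where 3.35% of genes were called, and all 6 at 12 weeks, where 4.42% were. That comparison chose them, so nothing is read from these counts. By log2 difference, E530001K10Rik was number 12 of 246 genes called higher at 4 weeks, and Mxd3 number 5 and Has3 number 7 of 285 at 12 weeks. HET against WT in striatum shares the WT libraries with that comparison, and its log2 values ran from -0.29 to 0.50 over the 12 pairs of gene and age. The plot of striatal levels shows the libraries one by one.

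**Figure D1:**
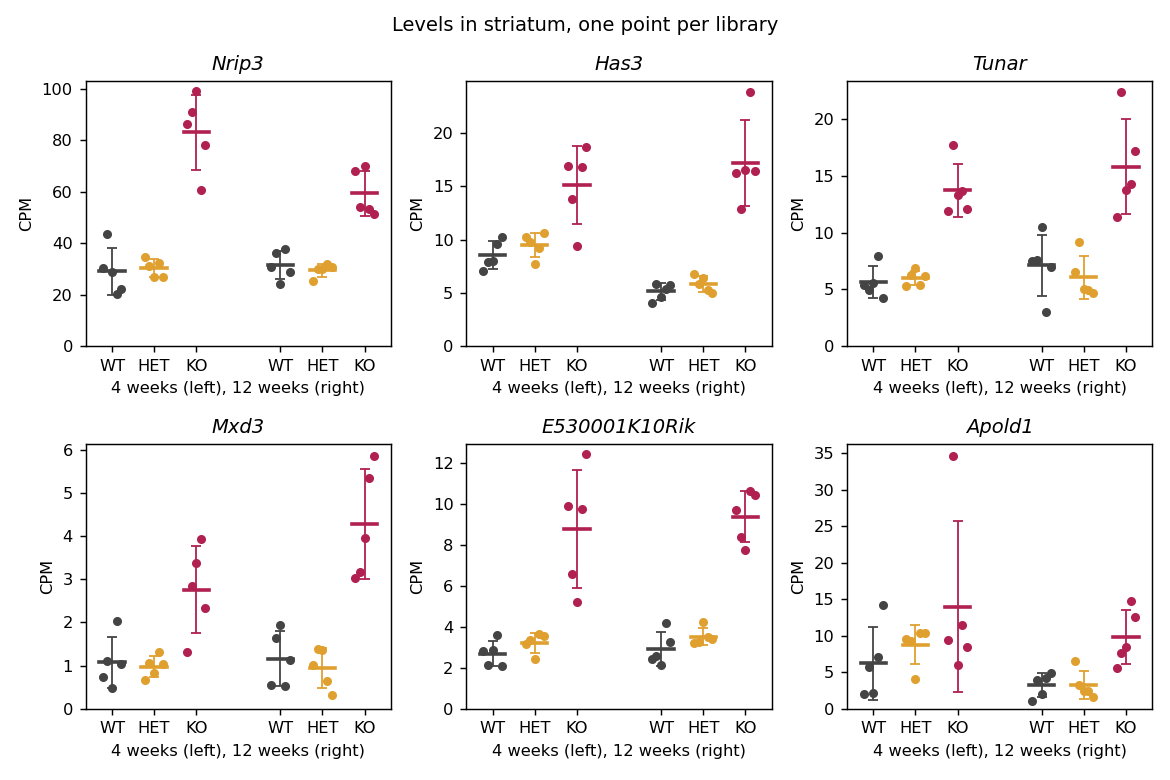
CPM (vertical axis, from 0) in each striatal library for WT, HET and KO at 4 weeks (left) and 12 weeks (right), with 5 libraries per group; wide bars are means and thin bars SD. KO libraries lie above every WT library for Nrip3, Tunar and E530001K10Rik at both ages and for Has3, Mxd3 and Apold1 at 12 weeks, and 1 4-week KO library holds 34.6 CPM of Apold1.

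Where the genes stood among WT regions differed from gene to gene. Nrip3 was highest in thalamus (517 ± 139 CPM, SD, n = 6, at 4 weeks and 674 ± 41.1, n = 5, at 12 weeks) and lowest in striatum (29.0 ± 9.19 and 31.5 ± 5.53). Hippocampus and nigra followed thalamus, then SSC and PFC. At 12 weeks no neighbouring pair in that order overlapped, and at 4 weeks only SN from SSC and PFC from striatum were separate. Tunar was also highest in thalamus (124 ± 25.8 and 125 ± 11.2 CPM), then in nigra and hippocampus. Its levels in PFC, SSC and striatum were close, from 5.64 to 7.65 CPM in the group means, with ranges that overlapped. KO striatum at 4 weeks reached 16.1% of the WT thalamic level for Nrip3 and 11.0% for Tunar, against 5.62% and 4.54% in WT striatum. At 12 weeks the shares were 8.80% and 12.6% in KO and 4.67% and 5.70% in WT.

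Has3, Mxd3 and E530001K10Rik had their highest WT means in striatum, although at both ages each overlapped the next region. Has3 fell in the order striatum, hippocampus, nigra, SSC, thalamus and PFC at each age, and the only separate neighbours were thalamus and PFC at 12 weeks. Mxd3 was at most 1.16 CPM in the WT group means and was lowest in nigra. E530001K10Rik in thalamus (2.64 ± 1.31 and 2.80 ± 0.683 CPM) stood close to striatum (2.69 ± 0.627 and 2.91 ± 0.813), and SSC was lowest. Apold1 ranged from 4.48 to 7.57 CPM in the WT means at 4 weeks and from 2.60 to 6.82 at 12 weeks, and every neighbouring pair of regions overlapped.

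**Figure D2:**
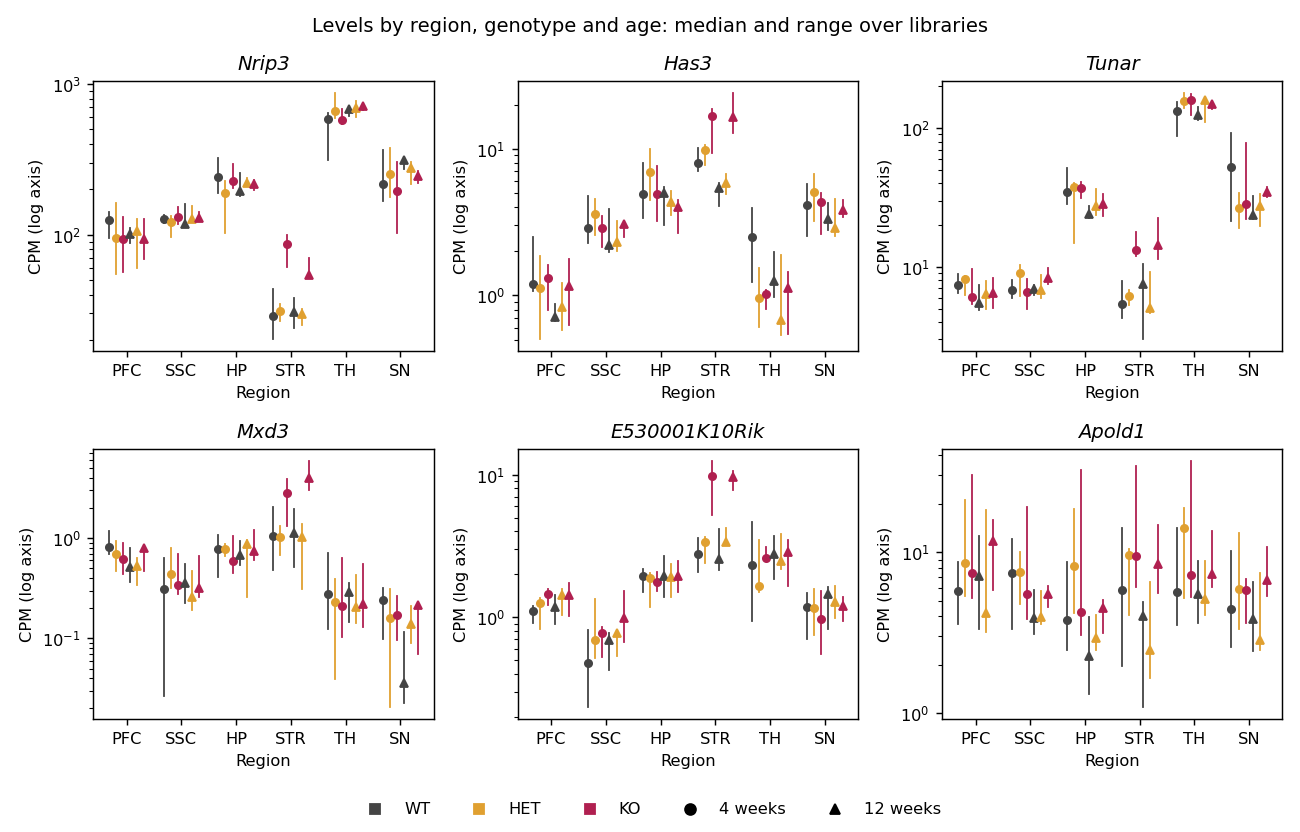
CPM on a log axis by region for WT, HET and KO at 4 weeks (circles) and 12 weeks (triangles); symbols are medians and lines the range over the 5 or 6 libraries of a group. In KO striatum Has3, Mxd3, E530001K10Rik and Apold1 exceed the WT mean of all 5 other regions, while Nrip3 and Tunar stay far below thalamus.

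Differences among the 5 WT regions outside striatum were tested in 1 edgeR fit per age. At 4 weeks 5 of the 6 genes were called, against 78.9% of all genes, and Apold1 was not (adjusted p = 0.263). At 12 weeks all 6 were called, against 90.3% of all genes, with the highest adjusted p for Apold1 at 0.00799. A share this close to that of all genes sets none of them apart.

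For each gene, the genes most like it over the 12 WT groups of region and age were taken by Pearson's r of mean log2(CPM + 1), as a description. Epn3 (r = 0.993) and Shox2 (r = 0.985), a transcription factor, were most like Tunar, and Shox2 averaged 151 CPM in WT thalamus and 0.0884 in WT striatum. Acer3 and Dab2 (r = 0.983 each) were most like Nrip3. Necab2 (0.960) and Ryr3 (0.959), which bind or release calcium, were most like E530001K10Rik, and Rab34 (0.931) and Ubr2 (0.928) most like Has3. Vps26b (0.956) and Rbm14 (0.951) were most like Mxd3, and Rasip1 (0.872), an endothelial gene, and Gnb1 (0.864) most like Apold1. Of these 12 genes none was called in KO striatum at either age, and Shox2 was too low to be tested. Among the chosen genes themselves, the most alike over the WT groups were Nrip3 and Tunar (r = 0.86), and the least alike Nrip3 and Mxd3 (r = -0.72).

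Outside striatum the question was whether KO raised the same genes elsewhere. No gene was called by edgeR in KO against WT in 30 pairs of gene and region at 4 weeks, nor in 30 pairs at 12 weeks. At an unadjusted p under 0.05 there were 3 pairs at 4 weeks, 2 of them higher in KO, and 9 at 12 weeks, 8 of them higher. Over all genes tested in the same regions, 9.26% of such pairs at 4 weeks and 5.07% at 12 weeks were under that threshold. DESeq2 called 1 pair at 4 weeks and 0 at 12 weeks. Few genes of any kind were called by edgeR in these regions: 0.0125% and 0.0123% in PFC at 4 and 12 weeks, and 0.0564% and 0.0252% in SSC. The shares were 0.00609% and 0.00608% in HP, 0.0128% and 0.00640% in TH, and 0.00617% and 0.0364% in SN. DESeq2 called more, such as 198 genes in TH at 4 weeks and 18 at 12 weeks. The median log2 difference over the pairs was -0.05 at 4 weeks, with 12 of 30 above 0, and 0.19 at 12 weeks, with 23 of 30 above 0. The groups did not overlap in 4 pairs. KO was higher for E530001K10Rik in 4-week PFC and for Tunar in 12-week SSC, and lower for Has3 in 4-week TH and for Nrip3 in 12-week SN. Over all genes, KO lay above every WT library in 0.476% of pairs at 4 weeks and 0.506% at 12 weeks, and below in 0.440% and 0.467%. With so few pairs among the 6 genes, nothing is read from this. Without the library labelled WT 92, none of the 6 genes was called in 4-week SN, and their KO differences ran from -0.41 to 0.06.

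**Figure D3:**
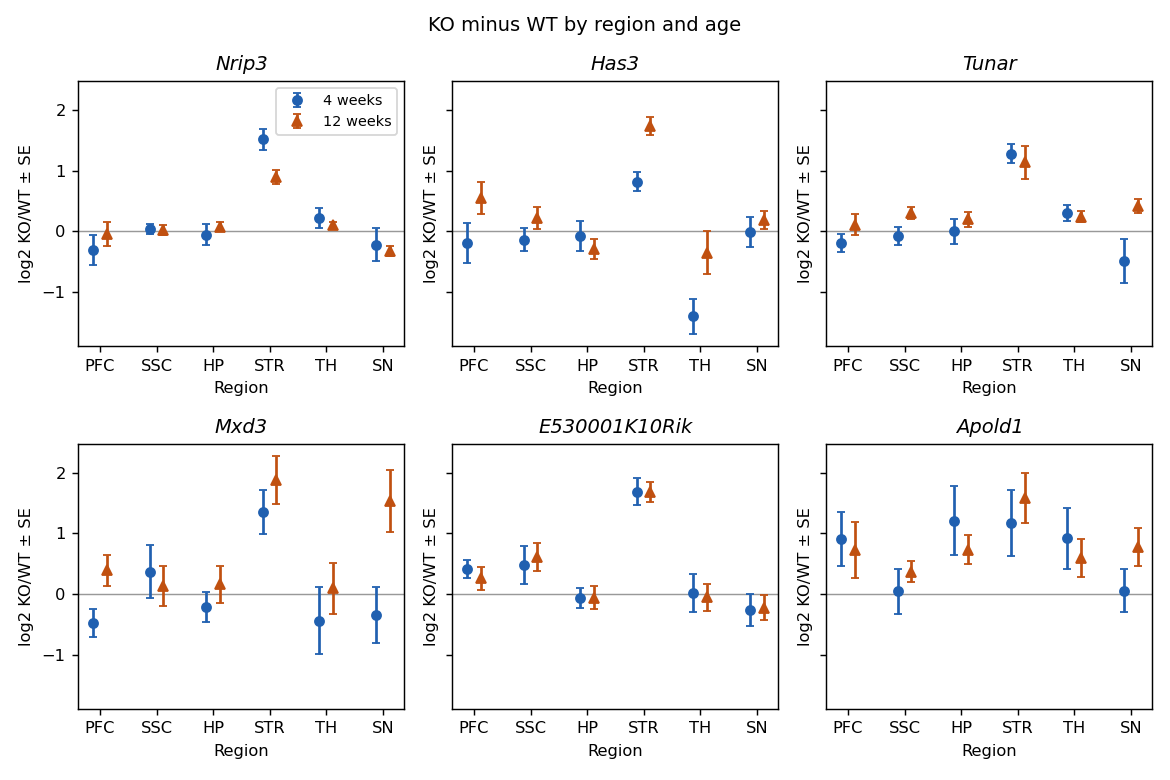
Log2 difference of KO minus WT (vertical axis) with its SE, by region, at 4 weeks (circles) and 12 weeks (triangles), from the fits within region and age with 5 or 6 libraries per group. Values in striatum run from 0.82 to 1.88, and outside striatum only Mxd3 in nigra (1.54) and Apold1 in hippocampus (1.21) lie above 1, with Has3 in 4-week thalamus the lowest at -1.40.

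Has3 in 4-week thalamus came nearest to a call, in the direction opposite to striatum. The KO libraries held 0.803, 0.966, 1.02, 1.04 and 1.09 CPM and the 6 WT libraries 1.23, 1.76, 2.41, 2.56, 3.56 and 3.93, without overlap. HET libraries, at 0.606 to 1.54 CPM, lay with KO. The edgeR log2 difference was -1.40 ± 0.29 (SE, n = 5 and 6, adjusted p = 0.0991), and DESeq2 called it (adjusted p = 0.00163), along with 1.15% of all genes in that comparison. HET against WT, which shares the WT libraries, gave -1.36 ± 0.29 (adjusted p = 0.187). WT 913, WT 914 and WT 23, which stood apart in thalamic markers, held the highest Has3 levels, and without them the KO difference was -0.87 (adjusted p = 0.688). Without WT 142, the lowest WT library, it was -1.54 (edgeR adjusted p = 0.0103). Leaving out the highest WT values shrinks the difference and leaving out the lowest widens it in any case, so neither value tests the marker difference. The 12-week difference was -0.35 ± 0.35 (adjusted p = 0.880).

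Nrip3 in nigra at 12 weeks also pointed away from striatum. It measured 221, 233, 244, 257 and 265 CPM in KO and 271, 283, 314, 322 and 323 in WT, a log2 difference of -0.32 ± 0.08 with an edgeR adjusted p of 0.634. Over the 10 comparisons outside striatum, Nrip3 ran from -0.32 to 0.22 and was above 0 in 5.

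Tunar in 12-week nigra measured 31.7, 32.6, 34.7, 37.3 and 37.6 CPM in KO and 22.1, 23.3, 23.5, 28.4 and 32.3 in WT, a log2 difference of 0.42 ± 0.12 that was not called (edgeR adjusted p = 0.649). In 12-week thalamus it was 0.24 ± 0.09 and in 12-week SSC 0.30 ± 0.10. HET against WT at 12 weeks gave 0.26 ± 0.09 in thalamus, 0.05 ± 0.10 in SSC and 0.07 ± 0.12 in nigra. At 12 weeks the mean of the 5 regional KO differences was 0.26 ± 0.07, with an unadjusted p of 0.000693 and an adjusted p of 0.155 in the edgeR fit over all regions. At 4 weeks that mean was -0.09 ± 0.10. The fit over all regions treats libraries with the same sample number as independent, so its SE and p may be too small.

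Mxd3 in 12-week nigra had the largest positive KO difference outside striatum, 1.54 ± 0.51 (edgeR adjusted p = 0.649), on very few counts. HET against the same WT libraries gave 1.44 ± 0.51 (adjusted p = 0.930), so the difference was not particular to KO. The 5 WT libraries held 1 to 7 counts each and the KO libraries 5 to 13. E530001K10Rik was higher in KO in 4-week PFC (1.22 to 1.59 CPM against 0.914 to 1.20 in WT), a difference of 0.41 ± 0.15 that was not called (edgeR adjusted p = 0.255).

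HET against WT outside striatum gave 0 called pairs of 30 at each age by edgeR and by DESeq2, with 6 and 2 pairs at an unadjusted p under 0.05, against 8.42% and 3.67% of all such pairs. By edgeR the shares of all genes called were 0.00626% and 0.00613% in PFC at 4 and 12 weeks, and 0.00627% and 0.00629% in SSC. They were 0% and 0.00608% in HP, 0.00639% and 0.00640% in TH, and 0% and 0.00606% in SN. DESeq2 called 413 genes in TH, 27 in HP and 19 in SN at 4 weeks and 23 in TH at 12 weeks. In the other sets of region and age it called 5 or fewer.

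Apold1 was the gene with KO values above WT in all 10 comparisons outside striatum, from 0.05 to 1.21 on the log2 scale. Its mean over the 5 regions was 0.63 ± 0.23 at 4 weeks (edgeR adjusted p = 0.166) and 0.65 ± 0.16 at 12 weeks (adjusted p = 0.0830). That fit treats libraries with the same sample number in several regions as independent. With genotype and sample number as a block in limma, the mean was 0.42 (adjusted p = 0.519) at 4 weeks and 0.67 (adjusted p = 0.238) at 12 weeks. None of the 6 genes was called for that mean at either age, against 1.32% of all genes at 4 weeks and 0.106% at 12 weeks. At an unadjusted p under 0.05 stood Apold1 (higher in KO) and Has3 (lower, -0.37) at 4 weeks, where 15.2% of all genes did. At 12 weeks Apold1, Tunar and Mxd3 did, all higher, against 8.21% of all genes.

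At 4 weeks the Apold1 difference rested on the libraries numbered KO 51. The labels do not say whether a sample number marks the same animal in each region. KO 51 held 30.2 CPM in PFC, 19.2 in SSC, 32.6 in HP, 34.6 in striatum and 36.8 in TH, the highest of all 4-week libraries in each of these 5 regions. The other 4-week KO libraries held 3.05 to 11.4 CPM over all regions. Without KO 51 the 4-week mean over 5 regions was -0.05 (adjusted p = 0.945). WT 914 was the highest WT number in 5 regions, at 8.71 to 14.2 CPM, and held 7.73 in PFC; without it the mean was 0.89 (adjusted p = 0.0322).

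No other of the 6 genes stood above all other 4-week KO libraries in KO 51 in more than 2 of its 5 regions. Of 26 activity-regulated early genes, Klf2, Klf4 and Cyr61 did so in all 5, Btg2 in 4, and Jun and Dusp1 in 3. None lay below all other KO libraries in all 5. The share of all genes highest in KO 51 was not counted, so nothing is read from these counts. Klf2 and Klf4 encode transcription factors of vessel and other cells, and Cyr61 a secreted matrix protein. In striatum KO 51 held 23.8 CPM of Klf2 against 2.96 to 10.5 in the other KO libraries, and 35.5 of Cyr61 against 5.07 to 7.82. Fos, the classic marker of recent neuronal activity, lay within their range in each of the 5 regions (25.8 CPM in striatum against 7.24 to 27.0), and Arc was below it in 4. These genes were chosen after their values were seen.

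At 12 weeks no single number carried Apold1. KO 4 or KO 5 was the highest library in SSC, HP, striatum, TH and SN, and HET 1 in PFC at 18.2 CPM. In hippocampus KO libraries held 3.13, 4.23, 4.50, 4.75 and 5.02 CPM and WT libraries 1.31, 2.08, 2.25, 3.43 and 3.94. Leaving out any 1 number moved the 12-week mean between 0.52 and 0.76, and it was called in edgeR without KO 2 (adjusted p = 0.0241), WT 2 (0.0382) or WT 4 (0.0411). Calls over all genes then numbered 125, 39 and 19, against 19 with every number included. These calls come from the fit without the block.

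**Figure D4:**
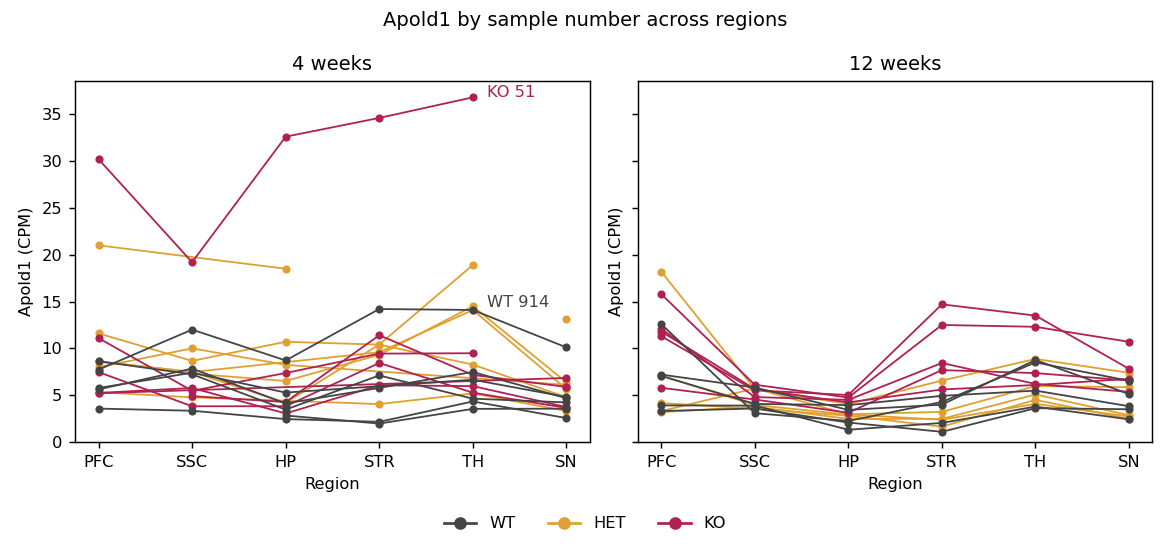
Apold1 in CPM (vertical axis, from 0) by region, with 1 line for each sample number, coloured by genotype, at 4 weeks (left) and 12 weeks (right). KO 51 lies between 19.2 and 36.8 CPM in the 5 regions it has, and at 12 weeks no library is above 18.2.

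Change with age was tested in WT outside striatum, where 8 of 30 pairs of gene and region were called by edgeR, 7 of them lower at 12 weeks. Shares of all genes called were 17.7% in HP, 19.1% in PFC, 18.6% in SN, 27.1% in SSC and 22.6% in TH, so the members' share is near that of all genes. Tunar fell by 0.62 on the log2 scale in HP (37.5 to 24.4 CPM, adjusted p = 0.0165) and by 1.06 in SN (53.6 to 25.9, adjusted p = 0.0105). Mxd3 fell by 2.06 in SN (0.229 to 0.0519 CPM, adjusted p = 0.00436) and by 0.71 in PFC. The SN value rests on very few counts, with 12-week WT libraries at 0.0229 to 0.115 CPM. Mean Mxd3 in SN at 4 and 12 weeks was 0.157 and 0.144 CPM in HET, and 0.180 and 0.163 in KO. The fall was thus seen in WT only, and age was not tested in HET or KO. Both SN calls held without the library labelled WT 92, for Tunar at -0.98 (edgeR adjusted p = 0.0183) and for Mxd3 at -1.96 (edgeR adjusted p = 0.00713). Tunar was widely spread in 4-week WT SN, from 21.3 to 92.8 CPM, with WT 42 the highest. Its SN mean at 4 and 12 weeks was 26.8 and 27.1 CPM in HET, and 38.2 and 34.8 in KO. Has3 fell by 0.94 in PFC and 0.93 in TH, and Apold1 by 0.87 in SSC. Nrip3 in TH was the only rise, 0.38 ± 0.13 (adjusted p = 0.0295). Its 4-week WT libraries there held 571 to 643 CPM, except WT 913 at 312 and WT 914 at 372. Both stood apart in thalamic markers and held the highest Has3. In other settings the TH calls were lost in 5 of 15 for Nrip3 and 7 of 15 for Has3. The PFC calls of Has3 and Mxd3 were lost in 6 of 14, and that of Apold1 in SSC in 8 of 14. Tunar lost its call in 1 of 15 in HP and in SN, and Mxd3 in SN in 0 of 14. Age and any other difference between the 4-week and 12-week libraries cannot be told apart.

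The other genes of each pathway, in lists chosen with earlier results known, gave few calls in KO striatum, as follows. Over all genes, 3.35% were called at 4 weeks and 4.42% at 12 weeks, with median log2 differences of -0.002 and 0.005. Of 26 tested genes of hyaluronan synthesis, breakdown and binding, 0 rose and 1 fell at 4 weeks, and 0 of 25 were called at 12 weeks, with medians of 0.02 and -0.00. The gene that fell was Stab1, a scavenger receptor (-0.49 ± 0.12, edgeR adjusted p = 0.0353), and its call was lost in 7 of 17 other settings. The other hyaluronan synthase tested at both ages, Has1, differed by 0.02 ± 0.24 and -0.09 ± 0.15. Of 12 genes of the MYC, MAX and MXD network none was called at either age, with medians of -0.00 and 0.05. Among the relatives of Mxd3, Mxd1 differed by -0.32 ± 0.11 at 4 weeks and -0.23 ± 0.09 at 12 weeks, and Mxd4 by -0.18 ± 0.07 and -0.03 ± 0.07.

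None of the 4 tested relatives of Nrip3 was called, with Nrip2 at 0.41 ± 0.18 and 0.13 ± 0.20. Of the SERCA pumps and their small membrane proteins 3 were tested and none was called, and Atp2a2, the main pump of neurons, differed by 0.16 ± 0.21 and 0.04 ± 0.14. Of the apolipoprotein L genes, 1 was high enough to test at 4 weeks and 2 at 12 weeks, and none was called.

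The early genes that were called in KO striatum were all lower, but these few calls do not describe the list as a whole. Of 26 tested, 0 were called higher and 3 lower at 4 weeks, and 0 higher and 2 lower at 12 weeks. The log2 differences of the 26 ran from -3.53 to 1.33 at 4 weeks (median 0.02). At 12 weeks they ran from -2.99 to 1.27, and the median of 0.34 was above 0. Over all genes, 3.35% and 4.42% were called at these ages. Egr2, a transcription factor induced by activity, fell most, by 3.53 on the log2 scale at 4 weeks (0.993 to 5.24 CPM in KO against 22.2 to 70.2 in WT, adjusted p = 8.54e-05) and by 2.99 at 12 weeks (adjusted p = 0.000975). Egr1 fell by 0.89 and Homer1 by 0.74 at 4 weeks, and Ier5 by 0.31 at 12 weeks.

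Markers of other cell types were set beside the striatal values. Of 12 endothelial markers none was called at either age. Their summed level was 138 to 305 CPM in WT and 154 to 276 in KO at 4 weeks, and 158 to 224 and 171 to 225 at 12 weeks, with no marker at 0 in every library. Of the 8 markers of thalamus, where Nrip3 and Tunar were highest, none was called and the sums were 85.8 to 108 CPM in WT and 89.9 to 118 in KO at 4 weeks, and 75.4 to 99.3 and 79.9 to 84.6 at 12 weeks. The log2 differences of these 8 ran from -0.27 to 2.12 at 4 weeks (median 0.11) and from -0.99 to 0.32 at 12 weeks (median -0.07). Slc17a6, the vesicular glutamate transporter of thalamic neurons, was at 0.752 CPM in WT and 3.32 in KO striatum at 4 weeks (edgeR adjusted p = 0.327), against 428 in WT thalamus. At 12 weeks it was lower in KO striatum, at 0.243 CPM against 0.488 in WT. Cortical and hippocampal excitatory markers had a median log2 difference of 2.00 over 11 tested at 4 weeks, none called, and -0.05 over 7 at 12 weeks. Their sums at 4 weeks are those given above, and at 12 weeks they were 23.2 to 29.0 CPM in WT and 29.1 to 37.7 in KO. Proliferating cell markers summed to 35.0 to 107 CPM in WT and 37.9 to 107 in KO at 4 weeks, and to 44.1 to 68.2 and 42.3 to 60.3 at 12 weeks, with none called.

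Other markers in striatum were called as follows, where 3.35% of all genes were called at 4 weeks and 4.42% at 12 weeks. Microglial C1qa (-0.35) and C1qb (-0.30) and astrocytic Aqp4 (-0.58) were lower in KO at 4 weeks, as 2 of 10 and 1 of 10 markers, and none of either list at 12 weeks. No oligodendrocyte marker (10 tested) and no dopamine neuron marker (7 and 6 tested) was called. Of 12 striatal projection neuron markers, 1 was called higher at 4 weeks, and 2 higher and 2 lower at 12 weeks, a larger share than over all genes. The list was chosen with earlier results of these data known, so nothing is read from that share. Pdyn, the dynorphin precursor of direct-pathway neurons, rose by 0.73 ± 0.16 at 4 weeks and 1.03 ± 0.23 at 12 weeks. Tac1 rose by 0.43 and Rgs9 fell by 0.49 at 12 weeks, as did Pde10a, named after its value was seen, by 0.43. Of 12 interneuron markers only Sst rose, by 0.30, at 12 weeks. The calls of C1qa and Egr1, and that of the Has3 neighbour Sntb2 given next, were lost in over 10 of 17 other settings. Without the 4 libraries high in cortical markers, the 4-week calls of Egr2 (-4.33), Pdyn (0.87), Aqp4 (-0.70) and Stab1 (-0.61) held. Those of Egr1 (-0.62), Homer1 (-0.43), C1qa (-0.24), C1qb (-0.19) and Sntb2 (-0.25) did not. The part of these markers in the values of the 6 genes was not tested.

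Genes next to the members on the chromosome were also measured. Of the 2 nearest genes on each side in the annotation, 11 could be tested at 4 weeks and 13 at 12 weeks. None was called higher, and 1 was called lower, Sntb2, 51183 bases from Has3, at 4 weeks (-0.37 ± 0.10, edgeR adjusted p = 0.0453). Tmem9b, 5179 bases from Nrip3, differed by -0.02 ± 0.08 and 0.02 ± 0.06, and Rab24, 3221 bases from Mxd3, by -0.04 ± 0.06 and 0.01 ± 0.06.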

How the data were processed

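RNA was prepared from dissected tissue with the RNeasy Mini Kit and sequenced after TruSeq Stranded mRNA preparation, per the labels' protocols. The authors deposited expected counts, estimated counts per gene symbol that need not be whole; 77.9% of the values above 0 were not. The submitters' processing notes name Salmon and mm10, with no version, and the sources used here give neither annotation nor strand setting. In 16 of the 4-week libraries whole numbers made up no more than 5.55% of values above 0, against 17.3% or more elsewhere. Counts were rounded to whole numbers. Levels are CPM with TMM factors over all 186 libraries.

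Each region and age was fitted over its 3 genotypes with edgeR 4.0.16 in R 4.3.3 (TMM, filterByExpr, glmQLFit, glmQLFTest), adjusted by Benjamini-Hochberg over all genes tested, and a gene was called under 0.05. SE is the log2 difference divided by the square root of F. The mean KO effect and the WT regions were tested in 1 fit per age, and WT ages in 1 fit per region. The fit was tested on simulated data. Members and lists were chosen with earlier results of these data known. The named genes are the members, the 2 genes most like each in WT (mean CPM of at least 1), up to 3 called genes per list, and the 2 nearest genes on each side; others were named after their values were seen. Alternatives were RLE factors, no low-count filter, DESeq2 1.42.0, limma 3.58.1 with an animal block, covariates, the replicate number as a block, and leaving out libraries. The depth of 20.8 to 73.3 M counts limits Mxd3 most. Symbols were matched to GENCODE M21 (95.5%), and promoters to RefSeq.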

Additional observations from a re-analysis of the deposited data

Results flagged for a closer look

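Of 216 sets of gene and group, 19 held a library whose gap to the rest was large for the group's range by Dixon's criterion, which chance alone meets in about 1 in 20. Apold1 gave 10 of them. KO 51 at 4 weeks was highest in HP (32.6 CPM, others 3.05 to 7.37), PFC (30.2), SSC (19.2), striatum (34.6) and TH (36.8). WT 914 at 4 weeks was highest in SN (10.1) and TH (14.1). HET 62 in SN (13.1) and HET 93 in striatum (4.05, lowest) at 4 weeks, and HET 1 in PFC at 12 weeks (18.2), were the others.

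Mxd3 gave 4: HET 5 in 12-week HP was low (0.260 CPM), and KO 51 in SSC (0.700), KO 932 in TH (0.629) and WT 913 in TH (0.713) were high at 4 weeks. For Has3, WT 23 in 4-week PFC (2.52) and WT 2 in 12-week SSC (3.90) were high. WT 2 in 12-week SSC was also the high library for Nrip3 (159). For E530001K10Rik, HET 93 in 4-week SSC was high (1.35) and HET 3 in 12-week SSC low (0.538).

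Nrip3 at 12 weeks was lower in every KO than in every WT library of SN (-0.32 on the log2 scale) and higher in every KO than in every WT library of striatum (0.90). This difference between regions was not tested, because the striatal value chose the gene.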

How the results depend on the processing

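All 198 recomputed KO minus WT values of the 6 genes in striatum stayed above 0, and 197 moved by less than 1 SD, worked back from the SE. The other was Mxd3 at 4 weeks, at 0.75 without the 4 libraries high in cortical markers, and the cause was not tested. That SD is wide for Apold1 at 4 weeks, whose values as low as 0.50 counted as within it. The genes were chosen for rises in these same libraries, so nothing is read from the sign. Outside striatum, DESeq2 gave 1 called pair in KO at 4 weeks, and leaving out single libraries gave 0 to 1 in KO and 0 to 1 in HET at 4 weeks, each time Has3 in TH. For the mean KO effect, leaving out single sample numbers gave 0 to 1 called genes at each age, always Apold1, whose 4-week value reversed to -0.05 without KO 51 and was highest, 0.89, without WT 914. With only the WT libraries in the fit, 3 of the 8 age differences were called. Shared replicate numbers at 12 weeks did not meet the criterion for pairing, since every pair exceeded a correlation of 0.1 in only 2 of 18 sets of region and genotypes. As a hint from the data, 62 of 90 pairs exceeded it, and a library was closest to its own number in 89 of 180 cases, where 5 equal candidates would give 36. With the replicate block, 0 pairs were called in KO and 0 in HET outside striatum at 12 weeks, and 992 genes in KO striatum against 691 without it. In KO striatum, other settings called 174 to 1141 genes at 4 weeks (516 in the main fit), fewest with only the 2 genotypes in the fit and most without KO 12, and 428 (without KO 5) to 1030 (DESeq2) at 12 weeks. Of the other named striatal genes, C1qa, Egr1 and Sntb2 lost their call in over 10 of 17 settings.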
